A study of Mus musculus with 12 samples.

Results

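The genes described here are 9 members of the BCL2 family, picked by their symbols from the 32285 genes of the count tables: the anti-apoptotic Bcl2, Bcl2l1 (BCL-XL) and Mcl1, the effectors Bax and Bak1, and the BH3-only genes Bcl2l11 (BIM), Bbc3 (PUMA), Bid and Pmaip1 (NOXA). They were measured by 10x 3′ single-cell RNA sequencing in the livers of neonatal C57BL/6J mice, 1 library per pup. The 6 pups with phlebotomy-induced anemia (PIA) lost 20 µL of blood per g of body weight on every other day from postnatal day 2 to day 10, and the 6 controls received a needle stick without blood loss. Livers were taken 24 h after the last phlebotomy, at day 11. Pups of both sexes were used, with 4 female and 2 male controls and 2 female and 4 male anemic pups by their own Xist and Y-linked counts.

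BCL2 family proteins set whether the outer mitochondrial membrane is opened, the step that releases cytochrome c and starts the caspases. BAX and BAK1 form the pores, BCL2, BCL-XL and MCL1 hold them in check, and the BH3-only proteins block the anti-apoptotic members or activate the effectors. In the erythroid lineage, which the neonatal mouse liver still produces, erythropoietin keeps immature cells alive through its receptor and STAT5, BIM is one of the genes that this signal lowers, and BCL-XL is the anti-apoptotic member that maturing erythroblasts rely on.

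In the GRCm38 annotation Bcl2l11 (ENSMUSG00000027381) lies on chromosome 2 from 128126038 to 128162547 on the plus strand, and Bcl2l1 (ENSMUSG00000007659) on the same chromosome from 152780668 to 152831728 on the minus strand. The 250 bases before their start sites are given here from the RefSeq promoter table (build GRCm38.p6), because the erythroid results below turn on these members. Capitals mark matches on either strand to 1 of 3 motifs. The FOXO motif searched was GTAAACA. For GATA factors the letters AGATAA were searched, and beside them the variant TGATAA. The STAT motif was TTCNNNGAA. The first Bcl2l1 sequence precedes the start of the annotated gene, and the second precedes a start site inside it. Another inner start of Bcl2l1, at 152830717, and an inner start of Bcl2l11, at 128127575, are not printed. The sequences before them held none of the 3 motifs.

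Bcl2l11 promoter, chr2:128125788-128126037, plus strand: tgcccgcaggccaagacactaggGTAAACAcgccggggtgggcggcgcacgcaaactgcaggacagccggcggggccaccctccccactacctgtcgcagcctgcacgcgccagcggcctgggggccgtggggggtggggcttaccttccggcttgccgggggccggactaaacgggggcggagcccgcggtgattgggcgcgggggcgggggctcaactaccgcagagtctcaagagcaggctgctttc
Bcl2l1 promoter, gene start, chr2:152831729-152831978, minus strand: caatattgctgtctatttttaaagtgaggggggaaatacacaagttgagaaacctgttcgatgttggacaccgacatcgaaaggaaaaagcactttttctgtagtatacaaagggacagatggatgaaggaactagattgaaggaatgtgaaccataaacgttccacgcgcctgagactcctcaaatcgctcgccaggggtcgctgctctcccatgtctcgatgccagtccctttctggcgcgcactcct
Bcl2l1 promoter, inner start, chr2:152828490-152828739, minus strand: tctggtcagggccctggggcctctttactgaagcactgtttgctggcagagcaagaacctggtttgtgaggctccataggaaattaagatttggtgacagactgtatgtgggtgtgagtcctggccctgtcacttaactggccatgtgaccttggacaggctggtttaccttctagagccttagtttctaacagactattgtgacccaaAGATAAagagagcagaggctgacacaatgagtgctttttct

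The Bcl2l11 sequence held 1 FOXO match, which began 227 bases before the start site, and no GATA or STAT match. The Bcl2l1 sequence at the gene start held none of the 3 motifs, and the inner one held 1 GATA match that began 41 bases before its start. Over all 32851 promoter sequences of the same length, 3.17% held the FOXO motif, 16.6% a GATA motif and 7.02% the STAT motif. A match is a description of letters, and 3′ counting does not show which start site was used. Of the 9 members, 8 were looked up in the promoter table, and besides these the only match was 1 FOXO motif before a start site of Bbc3.

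After the filters on cells, 206146 cells remained, 98075 from controls and 108071 from anemic pups, with 14184 to 21186 cells and 45751640 to 74344118 unique molecular identifiers (UMIs, the counted molecules) per pup. Clusters were rebuilt without the 9 members and named from markers, which placed 199582 cells in 16 classes. Called doublets, droplets that may hold more than 1 cell, made up 12.0% to 17.6% of cells per pup, but 81.9% of cholangiocyte-like and 59.1% of stellate-like cells. Any pair of libraries shared 51 to 121 cell barcodes, at most 0.694% of the smaller one. The summed level of 9 erythroid markers in T-like cells had a median of 2884 CPM (counts per 1000000 UMIs) in controls and 13987 CPM in anemic pups.

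The members differed widely in where they were found. Erythroid-like cells had the lowest mean of 6 of the 9 over all pups, of 3 in controls alone (Bcl2l11, Mcl1 and Pmaip1) and of 7 in anemic pups alone. Orders below are over all 12 pups. Levels are given as CPM over all genes, per class and pup, and are compared only within a gene, with no test, because the classes were built from the same cells. This total includes hemoglobin, with medians of 69.7% and 71.2% of erythroid-like UMIs in controls and anemic pups. That lowers the CPM of every other gene there. In a fit with hemoglobin left out, mean scaled levels in erythroid-like cells were 71.1 and 38.9 for Bcl2l11, 131 and 140 for Mcl1 and 538 and 751 for Bcl2l1. The orders were not remade without hemoglobin. Bcl2, which keeps resting lymphocytes alive, was highest in NK-like cells at 487 ± 204 CPM (SD, n = 12), followed by NK/T-like cells at 458 ± 204 and T-like cells at 386 ± 143. These 3 classes overlapped, while the lowest T-like value of 237 CPM was above the highest endothelial-like value of 202 CPM. Endothelial-like cells had 141 ± 37.1 CPM of Bcl2, stellate-like cells 135 ± 35.2 and erythroid-like cells 4.73 ± 2.45, the lowest of the 16 classes. In controls alone B/pre-B-like cells (mean 5.11) and neutrophil-like cells (5.74) were below erythroid-like cells (6.42).

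Bcl2l1 had another order. B/pre-B-like cells had 265 ± 29.6 CPM (SD, n = 12), with no overlap with the erythroid-like cells that came next at 141 ± 27.9 CPM, and the latter overlapped pre-B-like cells at 133 ± 10.0 CPM. Monocyte-like cells were lowest at 20.5 ± 5.98 CPM. With hemoglobin in the total, erythroid-like cells were thus second of 16 for Bcl2l1, in either group. They were last in either group for Mcl1, a short-lived protein on which myeloid cells depend. Mcl1 was highest in neutrophil-like cells at 853 ± 217 CPM, then monocyte-like cells at 677 ± 44.9 and macrophage-like cells at 635 ± 115, all of which overlapped their neighbours. Erythroid-like cells had 32.9 ± 12.1 CPM of Mcl1.

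**Figure D1:**
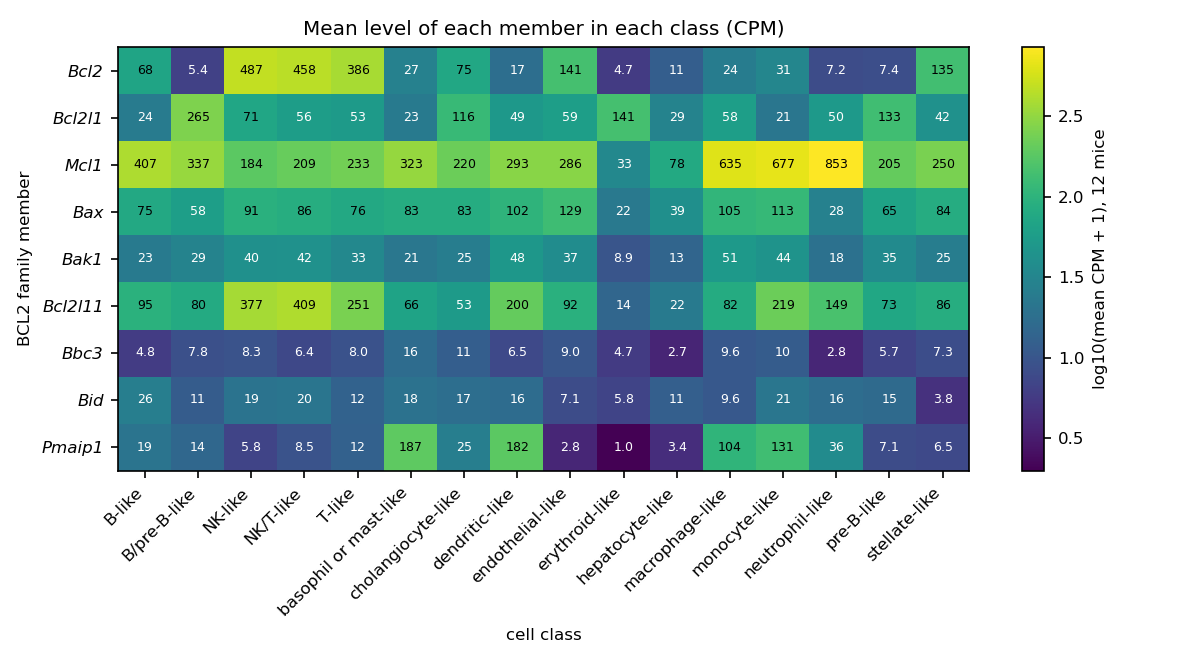
Mean level of each of the 9 members (rows) in each of the 16 cell classes (columns) over the 12 pups, printed in CPM, with color on a log10(CPM + 1) scale. Bcl2 and Bcl2l11 peaked in NK-like and NK/T-like cells, Mcl1 in neutrophil-like cells and Bcl2l1 in B/pre-B-like cells, and over all pups 6 of the 9 members were lowest in erythroid-like cells, against 3 in controls alone. The CPM total includes hemoglobin, which lowers the other genes in erythroid-like cells.

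The highest class mean of the effector Bax was 5.82 times the lowest and that of Bak1 5.76 times, close to the 5.75 times of Bbc3 and 6.85 times of Bid, and all neighbours in both orders overlapped. Bax was highest in endothelial-like cells at 129 ± 16.4 CPM and Bak1 in macrophage-like cells at 51.4 ± 19.0 CPM, while erythroid-like cells had 22.2 ± 16.7 CPM of Bax and 8.93 ± 7.10 CPM of Bak1.

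Among the BH3-only genes, Bcl2l11, which takes part in the removal of lymphocytes and myeloid cells, was highest in NK/T-like cells at 409 ± 42.5 CPM and NK-like cells at 377 ± 39.7, apart from T-like cells at 251 ± 35.0. Hepatocyte-like cells at 22.4 ± 7.13 CPM and erythroid-like cells at 13.7 ± 7.06 CPM were the lowest and overlapped. Pmaip1, a p53 target whose product binds MCL1, was highest in basophil or mast-like cells at 187 ± 87.1 CPM (85 UMIs in controls and 123 in anemic pups) and dendritic-like cells at 182 ± 32.8, which overlapped and had the reverse order in controls alone (153.8 and 170.4), and lowest in erythroid-like cells at 0.983 ± 0.866. Bbc3, another p53 target, and Bid, which is cleaved by caspase 8, were low everywhere, with class means of 2.75 to 15.8 CPM for Bbc3 and 3.76 to 25.8 CPM for Bid.

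The comparison of anemic with control pups was made within each class on UMIs summed per pup, with edgeR's quasi-likelihood test and Benjamini-Hochberg adjustment over all tested genes of the class. Of 144 pairs of member and class, 139 passed the filter on low counts, 8 were called at an adjusted p below 0.05, 3 higher and 5 lower, and 27 had an unadjusted p below 0.05. The calls fell in 5 classes. In erythroid-like cells 1 of 9 members was called against 0.545% of all tested genes, and in T-like cells 1 of 9 against 1.15%. The erythroid-like call was of Bcl2l11, whose fall there was known beforehand, so its share is a description only. In hepatocyte-like cells 4 of 9 were called, which is no more than the 55% of all genes called there. In endothelial-like cells 1 of 9 was called against 17.8% of all genes and in stellate-like cells 1 of 9 against 14.8%.

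No member was called in the other 11 classes, where the share of all genes called was 4.2% in macrophage-like, 2.57% in B/pre-B-like, 1.44% in pre-B-like, 1.11% in B-like, 1.05% in dendritic-like and 0.958% in NK/T-like cells. It was 0.781% in basophil or mast-like cells, where 4 members could be tested, 0.518% in NK-like, 0.284% in neutrophil-like, 0.257% in monocyte-like and 0.03% in cholangiocyte-like cells.

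**Figure D2:**
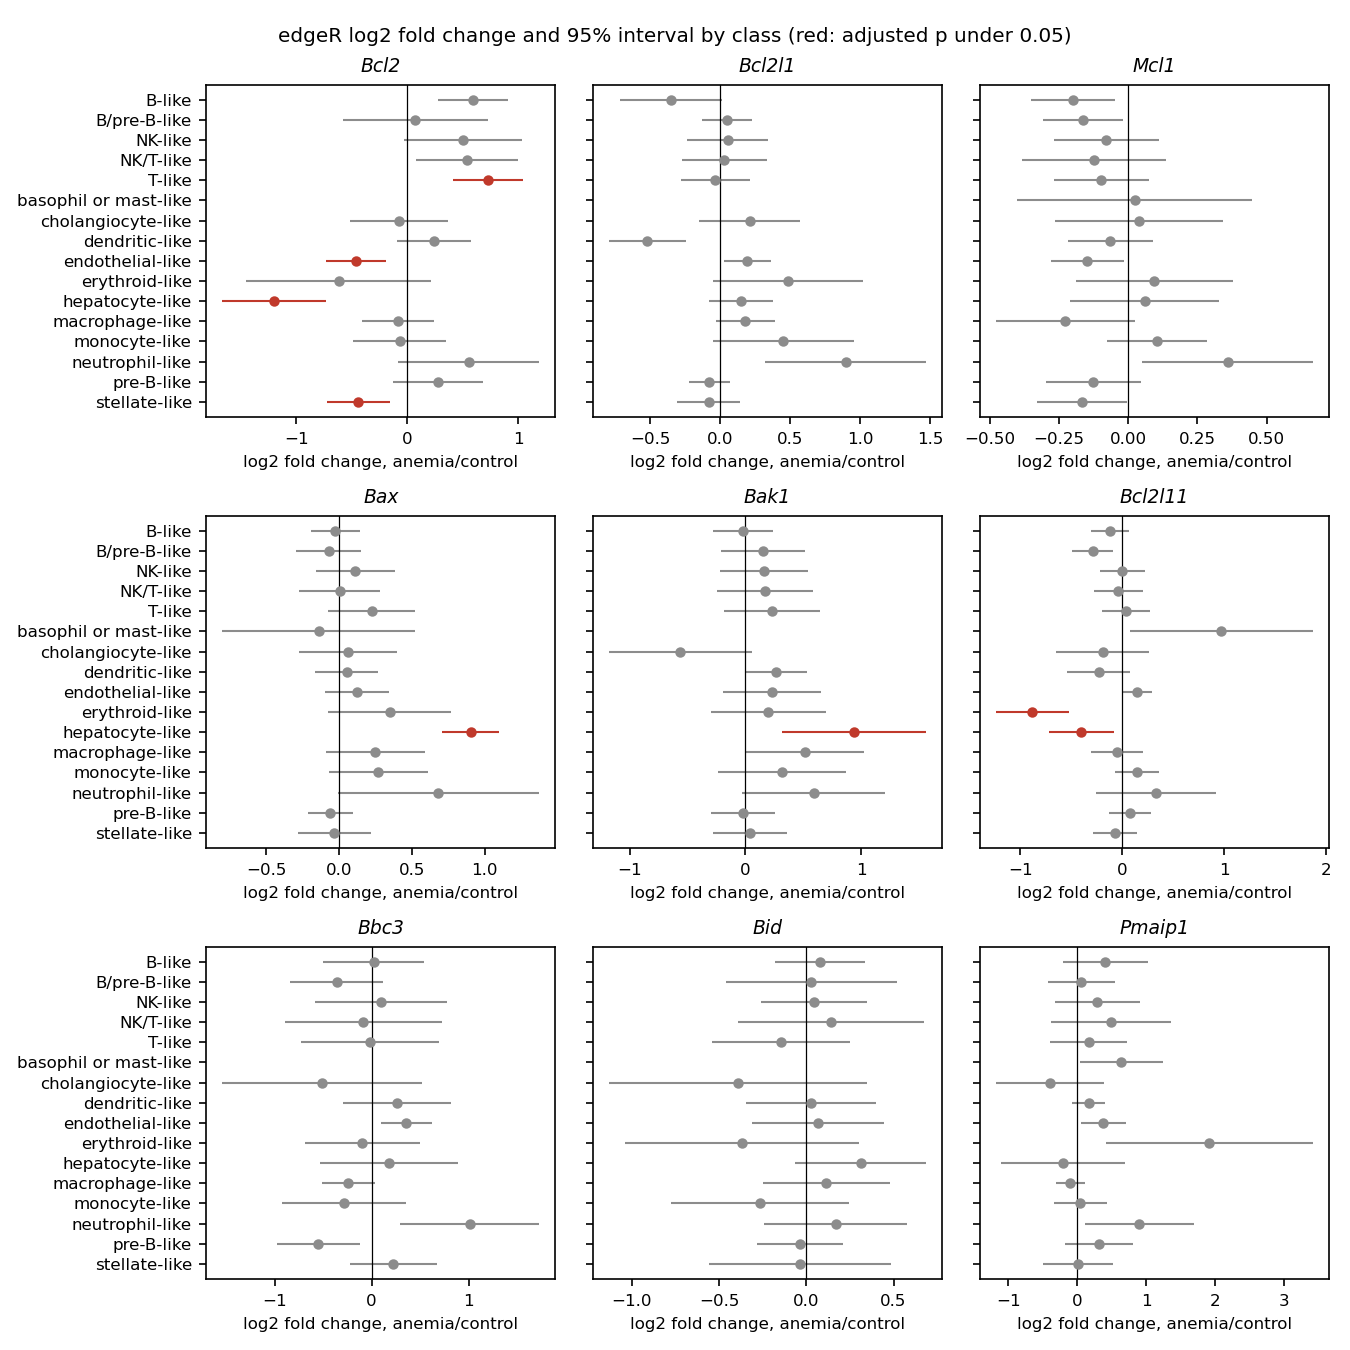
Log2 fold change of anemic over control pups (x axis) with its 95% interval for each member (panels) in each class (y axis), from edgeR fits of 6 against 6 pups. The 8 called pairs, in red, are Bcl2 in 4 classes, Bcl2l11 in erythroid-like and hepatocyte-like cells, and Bax and Bak1 in hepatocyte-like cells.

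Bcl2l11 was lower in erythroid-like cells of anemic pups. This class held 30288 cells, 7056 from controls and 23232 from anemic pups, and all 9 of its markers were detected. On the scale of the fit (CPM scaled by TMM, the trimmed mean of M values), the control pups had a lowest, median and highest Bcl2l11 level of 11.9, 18.6 and 20.8, and the anemic pups of 7.29, 9.72 and 11.7. Every anemic pup was below every control. The groups did not overlap for 1.27% of all genes tested in this class. The means were 17.4 ± 3.62 and 9.58 ± 1.53 (SD, 6 pups each), and the log2 fold change was -0.88 (SE 0.17) with an edgeR adjusted p of 0.0277. The direction was known from earlier work on these libraries when the test was set, so the test is not independent evidence of it. Counts were small, with 8 to 37 Bcl2l11 UMIs per control pup and 27 to 118 per anemic pup.

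The call depended on the model, the scaling and called doublets. It was lost with the replicate number as a block (-0.89, edgeR adjusted p 0.156) and in a joint limma voom model of all classes (-0.76, adjusted p 0.0992). With hemoglobin genes left out the log2 fold change was -0.89 (edgeR adjusted p 0.0247), and without TMM scaling, which moved the median of all genes to -0.38, it was -1.19 (edgeR adjusted p 0.323). Called doublets held 99 of the 148 Bcl2l11 UMIs of control erythroid-like cells (66.9%) and 165 of the 327 of anemic ones (50.5%), although they were 4.82% and 9.18% of the cells. With doublets left out, Bcl2l11 ran from 5.10 to 9.22 (median 7.57) in controls and from 3.63 to 10.8 (median 4.84) in anemic pups. The groups then overlapped, and the log2 fold change was -0.43 with an edgeR adjusted p of 0.517.

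Summed markers of other cells differed in median between the groups, and most lists were lower in anemic pups. The 6 hepatocyte markers summed to 3169 to 4743 CPM in control erythroid-like cells and 379 to 2403 CPM in anemic ones, without overlap. The summed level of 6 pre-B markers in erythroid-like cells ranged from 2.04 to 30.4 CPM in controls (median 17.7) and from 3.28 to 7.89 CPM in anemic pups (median 6.87), and that of 6 B markers from 15.0 to 57.3 CPM (median 34.3) and from 7.07 to 20.6 CPM (median 16.8). All 12 of these markers had at least 1 UMI there. Without called doublets the pre-B medians were 5.23 and 2.58 CPM and the B medians 16.4 and 7.05 CPM. In all cells, NK markers had medians of 14.0 and 10.4 CPM, T markers of 17.2 and 10.8 CPM and monocyte markers of 44.2 and 25.9 CPM. Endothelial markers had medians of 91.3 and 52.7 CPM and stellate markers of 72.7 and 51.1 CPM. Neutrophil markers were higher in anemic pups, at 77.1 and 126 CPM, and so were macrophage markers, at 109 and 127 CPM. Ranges overlapped in each. Without called doublets the neutrophil medians were 54.0 and 53.6 CPM and the macrophage medians 80.9 and 60.8 CPM. The part of these cells in the Bcl2l11 result was not tested.

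Leaving out control 1, 2, 4 or 6 or anemic pup 1 or 6 also ended the call, with log2 fold changes of -0.84 to -0.88 and edgeR adjusted p from 0.0621 to 0.0809. Counted per 1000 erythroid-like cells, Bcl2l11 gave 26.4 ± 9.57 UMIs in controls and 15.6 ± 8.56 in anemic pups (SD, n = 6 each, exact two-sided permutation p = 0.0714).

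**Figure D3:**
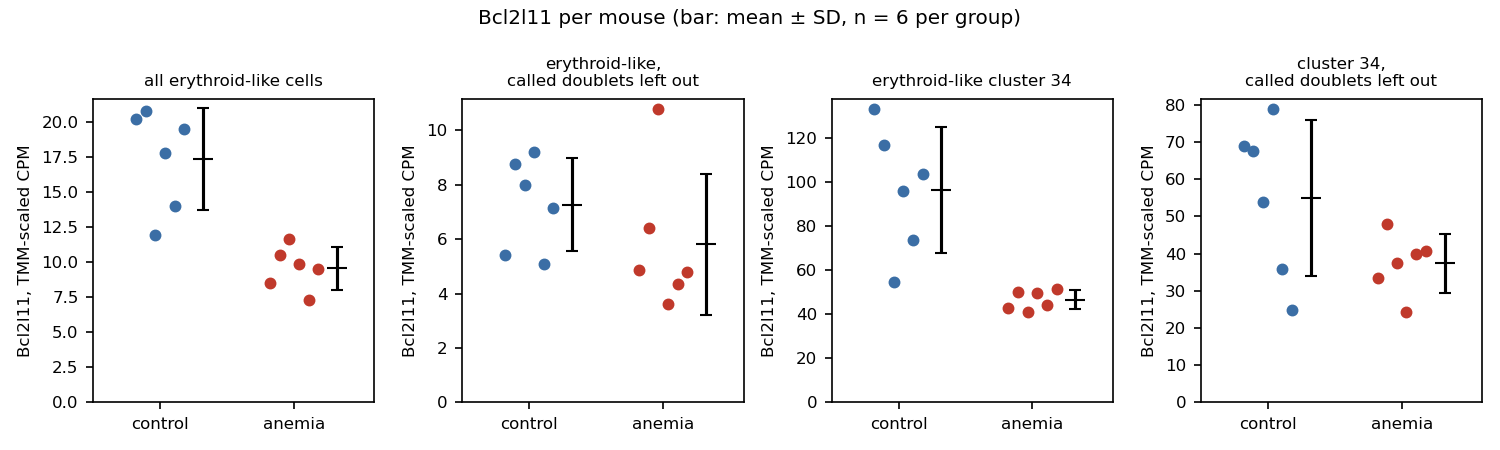
Bcl2l11 in each pup (TMM-scaled CPM, y axis) for 6 control and 6 anemic pups, in all erythroid-like cells and in erythroid-like cluster 34, each with all cells and with called doublets left out. Points are pups and bars are mean ± SD. The groups are apart with all cells and overlap once called doublets are left out.

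Most of the Bcl2l11 UMIs of the class came from a small part of its cells. Cluster 34, led by Rhd, Hemgn and Kel, had 1852 cells (437 and 1415), 6.11% of the class, and 395 of its 475 Bcl2l11 UMIs (83.2%). Its cells had a median of 1369 UMIs in controls and 2656 in anemic pups. There the level in controls had a lowest, median and highest value of 54.9, 99.9 and 133, and in anemic pups of 41.2, 47.0 and 51.4. No anemic pup reached the lowest control. The means were 96.4 ± 28.5 and 46.6 ± 4.32, and the log2 fold change was -1.04 (SE 0.19, edgeR adjusted p 0.0142). Bcl2l11 was the only 1 of 8 tested members called, against 0.35% of all genes. These are mostly the UMIs whose fall in the class was known beforehand, so this call is not independent evidence of it.

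In the same cluster 29.5% of control and 35.5% of anemic cells were called doublets, and without them Bcl2l11 had 27 UMIs in controls and 117 in anemic pups. The means were then 55.0 ± 20.9 and 37.4 ± 7.98 and overlapped, with a log2 fold change of -0.66 and an edgeR adjusted p of 0.434. Leaving out control 2 or control 6 gave edgeR adjusted p of 0.0525 and 0.0689. In all cells of the cluster, the summed hepatocyte markers had medians of 1902 CPM in controls and 888 CPM in anemic pups, and the pre-B markers of 52.1 and 26.8 CPM. Neutrophil markers had medians of 101 and 335 CPM and macrophage markers of 119 and 228 CPM, with T markers at 69.2 and 28.4 CPM and NK markers at 38.4 and 28.3 CPM, both with overlapping ranges. The part of these cells was not tested. None of the 9 erythroid markers was called in this cluster. Alas2, the first enzyme of heme synthesis in red cells, had a log2 fold change of 0.60 (edgeR adjusted p 0.162). Hbb-bs was at 0.56 (0.204) and Hba-a1 at 0.52 (0.219), each with 5 anemic pups above all controls, while Rhd, Car1 and Epor were at -0.16, -0.14 and -0.02. The cluster was a median of 8.42% of control and 5.91% of anemic erythroid-like cells. The part of these differences in the Bcl2l11 result was not tested.

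Split by the share of a cell's UMIs that came from hemoglobin, the 649 cells under 10% showed a Bcl2l11 level of 84.9, 132 and 178 (lowest, median, highest) in controls and 51.9, 61.9 and 80.7 in anemic pups. The groups did not overlap, but the log2 fold change of -0.96 had an edgeR adjusted p of 0.143, and none of the 8 tested members was called, against 0.105% of all genes in this range. The median depth of these cells was 3547 UMIs in controls and 8060.5 in anemic pups. Called doublets were 51.9% of control and 48.3% of anemic cells here, and they held 82.7% (81 UMIs) and 56.7% (115 UMIs) of the Bcl2l11 UMIs. Without called doublets the cells under 10% could not be fitted, with as few as 5 in an anemic pup. With the cut at 20% in place of 10% and doublets kept, Bcl2l11 was called lower (-1.05, edgeR adjusted p 0.0193). The fall in the class was known beforehand, so this call is not independent evidence of it. In the 1139 cells from 10% to 50% the means were 57.8 ± 41.8 and 27.2 ± 10.7 (edgeR adjusted p 0.255), and in the 28500 cells of at least 50% they were 2.99 ± 1.02 and 2.16 ± 1.35 (edgeR adjusted p 0.492), with overlap in both. The ranges are parts of a continuum, with 131 cells within 2 points of the 10% cut. Hemoglobin stayed in the totals and lowers the other genes more as its share rises, so levels are compared only within a range.

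Bcl2l1 UMIs followed the number of cells more closely. Cells of at least 50% hemoglobin, 94.1% of the class, held 5991 of the 6875 erythroid-like Bcl2l1 UMIs (87.1%). Those under 10%, 2.14% of the class, held 126 (1.83%). The 10% to 50% range, 3.76% of the class, held 11.0%, and cluster 34, 6.11% of the class, held 19.1%. In the most hemoglobinized range, controls had a lowest, median and highest level of 105, 133 and 160, and anemic pups of 146, 186 and 219. The highest control was above 1 anemic pup and below the other 5. The means were 129 ± 21.2 and 186 ± 29.3, and the log2 fold change was 0.54 (SE 0.16, edgeR adjusted p 0.0406). This was the only call among 5 tested members, in a range where 8.86% of all genes were called, and leaving out control 1, 2, 5 or 6 or anemic pup 1, 2 or 4 ended it.

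Within clusters of this hemoglobin-rich part, each fitted and scaled on its own, Bcl2l1 differed less between groups than between clusters. Its means were 85.4 ± 26.3 and 97.8 ± 10.6 in cluster 0, 142 ± 30.7 and 131 ± 16.2 in cluster 2 and 238 ± 21.3 and 249 ± 21.9 in cluster 4 (controls and anemic pups), with edgeR adjusted p from 0.45 to 0.794. Cluster 4, with the highest level, was 12.0% to 18.7% of control erythroid-like cells (median 14.6%) and 16.8% to 46.3% of anemic ones (median 30.8%). Cluster 0, with the lowest, had medians of 52.9% and 28.4%. The part of these shares in the Bcl2l1 difference was not tested. Hemoglobin stayed in the totals, so the levels of different clusters are not directly comparable. In the class as a whole Bcl2l1 was 132 ± 46.3 and 185 ± 65.4 with overlap (log2 fold change 0.48, edgeR adjusted p 0.508), though the joint voom model called it.

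In cells from 10% to 50%, where 1.9% of all genes and none of 5 tested members were called, Bcl2l1 was 351 ± 169 in controls and 266 ± 44.8 in anemic pups (edgeR adjusted p 0.574). There, with doublets left out, it was called lower, at 453 ± 149 and 226 ± 95.03 (log2 fold change -0.89, edgeR adjusted p 0.0212, with 7.4% of all genes called). That fit held 247 control and 613 anemic cells, with as few as 21 in an anemic pup. Controls ran from 292 to 631 and anemic pups from 44.7 to 298 (median 259), with overlap. Without doublets the Bcl2l1 call in cells of at least 50% stayed, at 0.51 (edgeR adjusted p 0.0349). Mcl1 in the 10% to 50% range was 89.7 ± 21.8 in controls and 162 ± 40.0 in anemic pups, above all controls in 5 of 6, with a log2 fold change of 0.87 that missed the threshold (edgeR adjusted p 0.065).

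**Figure D4:**
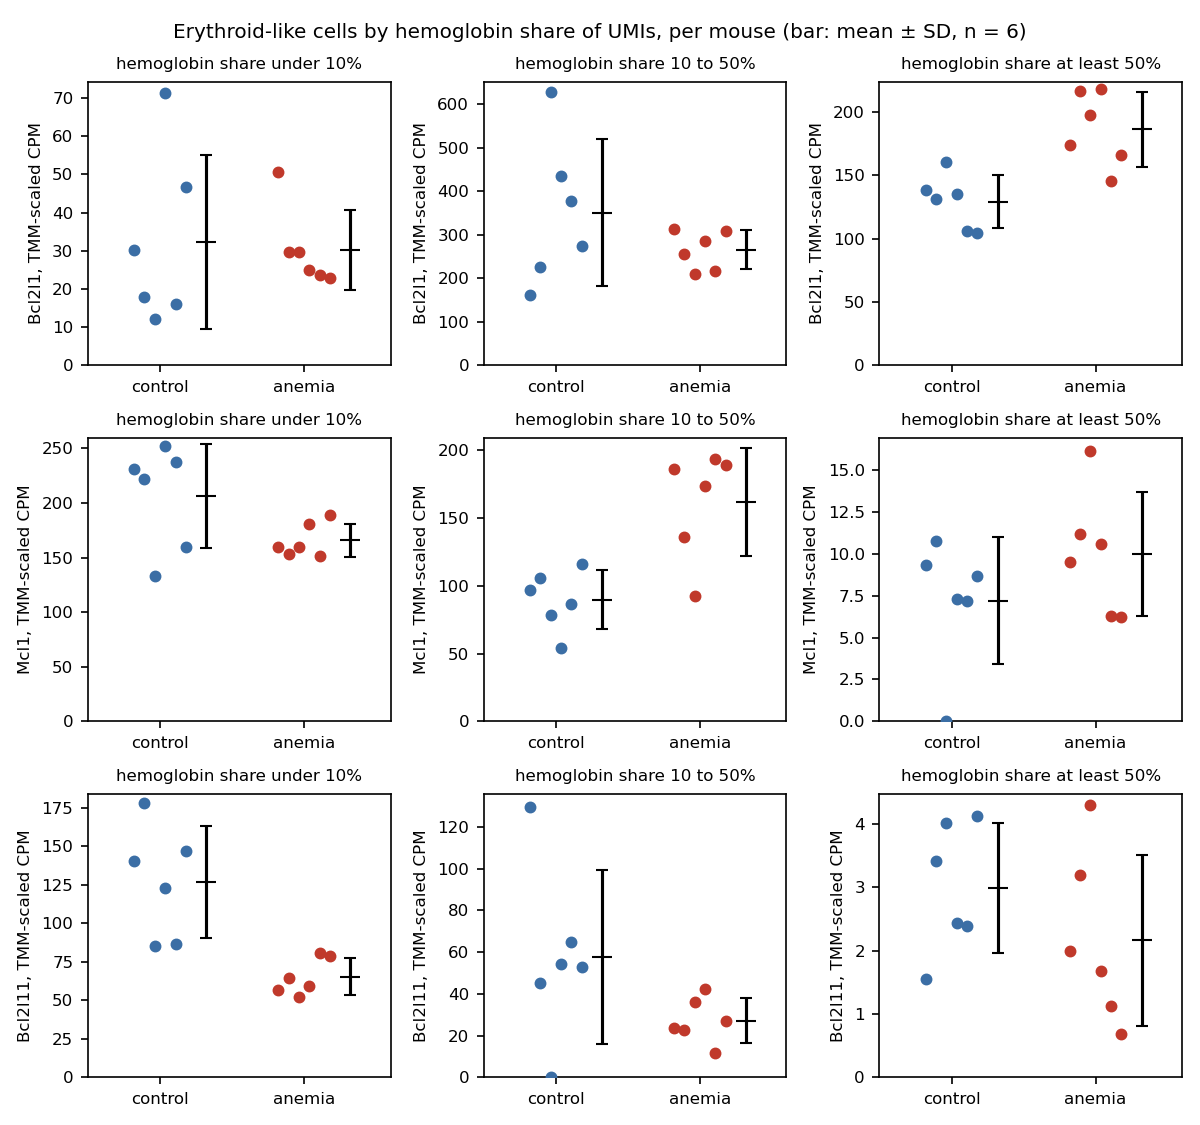
Bcl2l1, Mcl1 and Bcl2l11 (rows) in each pup, as TMM-scaled CPM, in erythroid-like cells with a hemoglobin share of UMIs under 10%, from 10% to 50% and of at least 50% (columns). Points are pups and bars are mean ± SD of 6. The mean control level of Bcl2l11 was 127, 57.8 and 2.99 in the 3 ranges and that of Bcl2l1 32.4, 351 and 129, and each panel has its own y axis. The totals include hemoglobin, which lowers the other genes most in the last range, so levels are not directly comparable between ranges.

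The edgeR test over all genes called none of the other 7 members in erythroid-like cells as a whole. Mcl1 was at 31.9 ± 5.96 in controls and 34.4 ± 2.87 in anemic pups (log2 fold change 0.09, 95% interval -0.19 to 0.38). Bax was 18.6 ± 7.21 and 22.7 ± 4.32 and Bak1 7.67 ± 2.93 and 8.44 ± 2.15, with control 3, the library of 216 erythroid-like cells, highest in its group for both. Bcl2, Bbc3 and Bid were below 10 in every pup but for Bid in control 3.

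Pmaip1 was sparse, with 0 or 1 UMI in each control and 6 to 19 in each anemic pup. On the scaled level controls ran from 0 to 0.842 and anemic pups from 1.07 to 5.40. The groups were apart, but the log2 fold change of 1.91 (SE 0.71) had an edgeR adjusted p of 0.309. Pmaip1 passed the filter on low counts only through the anemic pups, so this test could hardly have shown a fall. Per 1000 cells it was 0.558 ± 0.563 in controls and 2.68 ± 1.23 in anemic pups (exact two-sided permutation p = 0.00433), with overlap. Such counts do not adjust for depth, with medians of 999.5 UMIs per erythroid-like cell in controls and 1371 in anemic pups.

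Whether the Bcl2l11 difference in erythroid-like cells was unlike that elsewhere was tested directly, by an exact permutation over pups of the difference in log2(CPM + 1) between classes. It was more negative against 12 of 15 other classes (adjusted p from 0.0108 to 0.0379, over 30 such tests of Bcl2l11 and Bcl2l1), with -1.16 in erythroid-like cells and -0.25 to 0.18 in those 12. As the fall in erythroid-like cells was known beforehand, this test too is not independent evidence of it. Against B/pre-B-like (adjusted p 0.0603), hepatocyte-like (0.355) and basophil or mast-like cells (0.414), by the same exact test, it did not pass. With called doublets left out, stellate-like and cholangiocyte-like cells could not be fitted, and against the other 13 classes none of the differences passed, the smallest adjusted exact p for Bcl2l11 being 0.643. For Bcl2l1 none passed on this scale. On TMM-scaled CPM the Bcl2l11 effect in erythroid-like cells was -0.78, and the classes that passed changed. Cholangiocyte-like cells no longer did (adjusted exact p 0.105), while hepatocyte-like (0.00697) and B/pre-B-like cells (0.0338) did. On that scale the Bcl2l1 effect was 0.49 in erythroid-like cells against 0.07 unscaled, and its difference from dendritic-like cells of 1.02 passed (adjusted exact p 0.0493).

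Bcl2 was higher in T-like cells of anemic pups. Controls had a lowest, median and highest level of 283, 370 and 399, and anemic pups of 463, 526 and 960. All anemic pups were above all controls, with anemic pup 5 far above the rest. The groups did not overlap for 1.17% of all genes tested there. The means were 355 ± 43.6 and 590 ± 186, and the log2 fold change was 0.73 (SE 0.15, edgeR adjusted p 0.0174). The call was lost without control 1 (edgeR adjusted p 0.0679), without control 3 (0.0592) and with doublets left out (0.61, edgeR adjusted p 0.0967), though the groups stayed apart in the last. At clustering resolution 1 it was 0.59 (edgeR adjusted p 0.102). The summed level of 6 B markers in these cells had medians of 575 CPM in controls and 320 CPM in anemic pups, and its part in the result was not tested.

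In the other lymphocytes Bcl2 had positive log2 fold changes that were not called: 0.59 in B-like (edgeR adjusted p 0.0654), 0.50 in NK-like (0.474), 0.54 in NK/T-like (0.356), 0.28 in pre-B-like (0.553) and 0.07 in B/pre-B-like cells (0.946). Alternatives called some of these: DESeq2, the replicate block and the fit with no filter on low counts in B-like cells, the latter also in NK/T-like cells, and the joint voom model in NK-like cells.

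In endothelial-like cells Bcl2 was lower, at 184 ± 29.4 in controls and 133 ± 24.4 in anemic pups (log2 fold change -0.46, SE 0.13, edgeR adjusted p 0.0221), and in stellate-like cells it was 175 ± 32.5 and 129 ± 22.6 (-0.44, SE 0.13, edgeR adjusted p 0.0351). The groups overlapped in both. Single pups ended the call in 3 cases for endothelial-like cells (controls 4, 5 and 6, edgeR adjusted p 0.0503 to 0.0559) and in 9 cases for stellate-like cells (all but controls 1 and 3 and anemic pup 1, edgeR adjusted p 0.0515 to 0.0878). The stellate-like call was also lost with the replicate block (edgeR adjusted p 0.0531) and with sex as a covariate (0.0749), and it has no value without doublets, since the class could not be fitted then. The 7 endothelial markers summed to medians of 4186 CPM in control and 2488 CPM in anemic stellate-like cells, with overlap. In endothelial-like cells 8 T markers summed to 28.9 to 35.2 CPM in controls and 12.6 to 26.4 CPM in anemic pups. The part of these cells was not tested.

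In hepatocyte-like cells Bax and Bak1 were called higher and Bcl2 and Bcl2l11 lower, 4 of 9 members where 55% of all genes were called, and the Bcl2 call was lost with doublets left out. Bax had a lowest, median and highest level of 29.2, 32.4 and 35.7 in controls and of 51.9, 63.0 and 64.9 in anemic pups. Every anemic pup was above every control, with means of 32.5 ± 2.20 and 60.7 ± 5.10 (log2 fold change 0.90, SE 0.09, edgeR adjusted p 5.81e-07), and it held under all alternatives run. Groups without overlap, as here and for Bcl2 below, were found for 30.8% of all genes tested in this class. In the same cells the 6 hepatocyte markers summed to 85932 to 92536 CPM in controls and 53410 to 82225 CPM in anemic pups, and the 9 erythroid markers to 1312 to 6257 CPM and 7010 to 25996 CPM, both without overlap. Their part in the result was not tested. Bak1 was 10.2 ± 2.42 and 21.7 ± 14.4 (0.93, SE 0.30, edgeR adjusted p 0.0126), with anemic pup 2 at 50.2 and the other 5 between 12.7 and 22.8. Without pup 2 the log2 fold change was 0.60, and the call was lost without TMM factors (0.55, edgeR adjusted p 0.121), with at most 10% mitochondrial UMIs (0.68, edgeR adjusted p 0.0642) and with doublets left out (0.79, edgeR adjusted p 0.0574).

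Bcl2 in hepatocyte-like cells was 17.2 ± 4.42 in controls and 7.17 ± 2.70 in anemic pups without overlap (-1.20, SE 0.22, edgeR adjusted p 0.000213), but with doublets left out it was 2.87 ± 1.44 and 3.56 ± 3.03, a log2 fold change of 0.00. The median summed level of 7 endothelial markers in this class was 488 CPM in controls and 161 CPM in anemic pups, and that of 6 stellate markers 476 and 121 CPM. Their part was not tested. Bcl2l11 was 28.4 ± 5.56 and 21.8 ± 3.80 with overlap (-0.40, SE 0.15, edgeR adjusted p 0.0321) and stayed called without doublets (-0.51, edgeR adjusted p 0.0294). It was lost at clustering resolution 1 (-0.26, edgeR adjusted p 0.17) and without control 1 or 6 or anemic pup 1 or 5 (0.0546 to 0.0866).

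**Figure D5:**
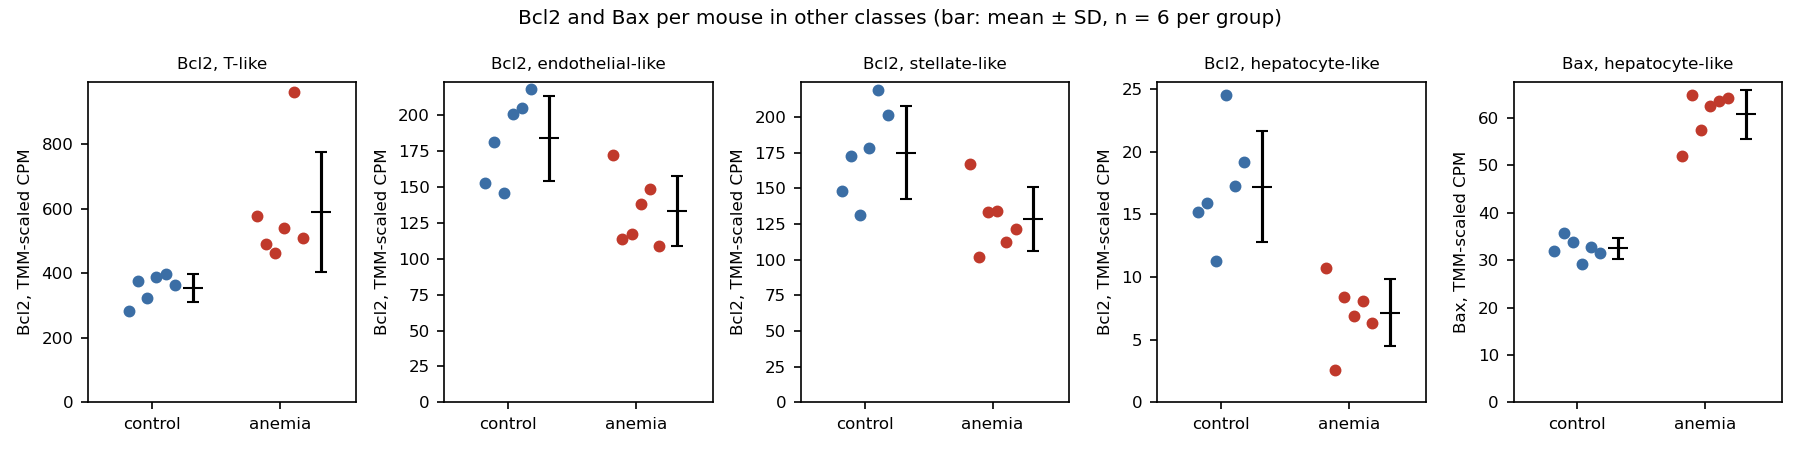
Bcl2 in T-like, endothelial-like, stellate-like and hepatocyte-like cells and Bax in hepatocyte-like cells, as TMM-scaled CPM in each of 6 control and 6 anemic pups. Points are pups and bars are mean ± SD. Bcl2 in T-like cells and Bax in hepatocyte-like cells were higher in every anemic pup than in any control, and the groups overlapped in endothelial-like and stellate-like cells. Over all tested genes the groups were apart for 1.17% in T-like and 30.8% in hepatocyte-like cells.

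Elsewhere the members stayed short of the threshold in the main fit. In neutrophil-like cells Bbc3 ran from 0.597 to 2.90 in controls and from 3.18 to 4.94 in anemic pups, apart but low (log2 fold change 1.01, edgeR adjusted p 0.185), and Bcl2l1 was 37.3 ± 6.74 and 68.3 ± 33.6 (0.90, edgeR adjusted p 0.157). The groups were apart for 1.52% of all genes tested there. In dendritic-like cells Bcl2l1 was 68.0 ± 10.1 and 47.3 ± 9.58, with 5 of 6 anemic pups below all controls (-0.52, edgeR adjusted p 0.0622). Mcl1 and Bid had log2 fold changes from -0.23 to 0.36 and from -0.39 to 0.31 over their classes. Alternatives called some pairs, among them Bcl2l1 in dendritic-like cells (DESeq2, the replicate block and no filter on low counts). In endothelial-like cells they called Bbc3 (DESeq2, a mean of at least 50 UMIs and joint voom) and Mcl1 (no TMM factors and joint voom).

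The pathway around the family was read from 4 lists. In erythroid-like cells 3 of 18 tested genes of the erythropoietin, STAT5 and FOXO3 list rose and none fell, where 0.545% of all genes were called (47 higher and 7 lower, but 46 higher and 125 lower with doublets left out), with a median log2 fold change of 0.23 against 0.01 for all genes. These were Cish, a STAT5-induced feedback inhibitor of cytokine signaling (3.14 ± 1.02 in controls, 9.38 ± 1.46 in anemic pups, log2 fold change 1.62, edgeR adjusted p 0.00329), Pim1, a survival kinase (78.4 ± 9.12 and 135 ± 12.6, 0.78, edgeR adjusted p 0.00787), and Erfe, the erythroid hormone that lowers hepcidin (0.585 ± 1.19 and 3.90 ± 1.14, edgeR adjusted p 0.029). Cish and Pim1 were higher in all 6 anemic pups than in any control. Erfe overlapped, with 4 anemic pups above all controls. It was near the floor in controls and passed the filter on low counts mainly through the anemic pups, so a fall of it could hardly have been tested. Tfrc, the transferrin receptor and the most abundant of the list, was also apart, at 161 ± 13.7 and 227 ± 38.1 (0.50, edgeR adjusted p 0.174). The list was chosen with earlier results of these data known. Its genes were also called higher in macrophage-like (4 of 17, 4.2% of all genes called) and B-like cells (3 of 14, 1.11%). In endothelial-like cells 7 of 17 were higher and 1 lower (17.8%), and in stellate-like cells 6 of 17 and 1 (14.8%). In hepatocyte-like cells 2 of 15 were higher and 6 lower (55%). Pim1 was called higher in endothelial-like and stellate-like cells, and Cish in macrophage-like cells.

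No gene of the other 3 lists was called in erythroid-like cells. Of other BCL2 relatives 5 of 13 were tested, led in level by Bcl2l13 at 39.2 ± 5.98 and 32.8 ± 5.21 (median log2 fold change of the list -0.24). Of caspases, apoptosome parts and their inhibitors all 19 were tested (median -0.05), the most abundant being Cycs, which encodes cytochrome c, at 81.1 ± 8.04 and 107 ± 13.03 (0.40, edgeR adjusted p 0.217). Of p53 and its targets 13 of 17 were tested (median 0.19), with Trp53 at 26.2 ± 6.48 and 30.0 ± 5.61.

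Over the 16 classes, the genes whose log2(mean CPM + 1) followed Bcl2l11 most closely were Cwc25 (Pearson's r 0.961), Mbnl1 (0.955), Itpkb (0.955), Med14 (0.942) and Zfp36l2 (0.929), among 13839 genes with at least 10 CPM in some class. For Bcl2l1 they were Slc25a51 (0.718), Cep70 (0.69), Zfpm1 (0.687), Cir1 (0.685) and Gm40841 (0.673). The points share libraries and free RNA, so the values are descriptions over 16 classes.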

How the data were processed

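The authors deposited filtered gene-by-cell matrices of raw UMI counts, 1 per mouse, made with Cell Ranger 7.0.0 per the file headers and aligned to mm10 per the labels. The labels and the methods name different versions of the 10x kit. Kept were barcodes holding between 500 and 50000 UMIs, of which mitochondrial genes gave no more than 50%. Clusters (2000 variable genes without the members, 20 components, 20 neighbours, leidenalg 0.10.2 at resolution 2) gave 60 clusters. They were named from marker lists, by a scoring rule set after the data were seen, and 6564 cells in 11 clusters stayed unnamed. Class names are thus rebuilt. Doublets were called by simulation at a rate of 0.8% per 1000 cells and kept in the main analysis.

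UMIs were summed per mouse and class with at least 10 cells in each mouse. Genes averaging 5 or more UMIs per pup, leaving out mitochondrial and ribosomal protein genes, were tested with edgeR 4.0.16 (TMM, quasi-likelihood). Alternatives used DESeq2 1.42.0, limma 3.58.1 (voom with quality weights over all classes), other filters, cells and scalings, replicate blocks, sex and leaving out each mouse. The tests were checked on simulated data. The members and gene lists were chosen with earlier results of these data known. All members were named. Of the other lists, genes called in erythroid-like cells (up to 6 per list) and the most abundant gene were named, and for Bcl2l11 and Bcl2l1 the 5 genes of most similar pattern. Replicates were separate pups, 1 library each, with total UMIs of 46252146 to 74545930 before filtering.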

Additional observations from a re-analysis of the deposited data

Results flagged for a closer look

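Among 32 groups of 6 pups (the members tested in erythroid-like cells and the called pairs), 7 held a pup far from the others by Dixon's test, which by chance marks about 1 group in 20. The gap over the range was 0.774 for Bcl2 in T-like cells of anemic pup 5 (960 against a group median of 526). In erythroid-like cells control 3, with 216 such cells, was apart for Bax (0.72, level 32.8), Bak1 (0.711, level 13.4) and Bbc3 (0.637, level 8.95). Anemic pup 2 was apart for Bak1 in erythroid-like cells (0.669, level 12.6) and in hepatocyte-like cells (0.73, level 50.2), and anemic pup 3 for Pmaip1 in erythroid-like cells (0.829, level 5.40).

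The effect of anemia on Bcl2l11 differed between erythroid-like cells and 12 other classes by the exact permutation test over pups. The fall in erythroid-like cells was known beforehand, so these differences are not independent evidence of it. The difference of the log2 effects was -1.04 for B-like, -1.11 for NK-like, -1.12 for NK/T-like, -1.14 for T-like, -0.92 for cholangiocyte-like, -0.92 for dendritic-like and -1.20 for endothelial-like cells. It was -0.99 for macrophage-like, -1.24 for monocyte-like, -1.35 for neutrophil-like, -1.26 for pre-B-like and -1.01 for stellate-like cells. On TMM-scaled CPM cholangiocyte-like cells no longer passed, hepatocyte-like and B/pre-B-like cells did, and the difference was -0.67 for B-like and -0.54 for cholangiocyte-like cells. With called doublets left out, stellate-like and cholangiocyte-like cells could not be fitted, and none of 26 such differences of Bcl2l11 and Bcl2l1 passed the threshold.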

How the results depend on the processing

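The count of member calls was 8 and stayed within 1.5 times of that in 8 alternatives. It was 13 in the joint voom model, which called 1000 of 14538 genes in erythroid-like cells against 54 of 9906, and 3 with doublets left out, over 14 classes since stellate-like and cholangiocyte-like cells could not be fitted, and leaving out 1 pup gave 4 to 9. Bcl2l11 in erythroid-like cells was negative in every alternative that gave a value. Its log2 fold change lost the call without TMM factors (-1.19), in the joint voom model (-0.76), with the replicate block (-0.89, edgeR adjusted p 0.156), with doublets left out (-0.43), within cluster 34 without doublets (-0.66) and as UMIs per 1000 cells (-0.83), and leaving out 1 pup gave -0.95 to -0.84. A mean of at least 50 UMIs left it untested. In no class did all 6 correlations of same-numbered deviations exceed 0.1 (range -0.22 to 0.33), though 29 of 96 did. This rule cannot detect a pairing of only some pups by replicate number. The replicate block gave 8 member calls, of which 6 were shared. It lost Bcl2l11 in erythroid-like and Bcl2 in stellate-like cells and gained Bcl2 in B-like and Bcl2l1 in dendritic-like cells. The number of calls by hemoglobin range was 1, became 2 with cuts at 20% and 60% or with doublets left out, and was 0 to 1 without single pups. The differences of effect between classes were 12 of 30, 0 of 26 with doublets left out (without those 2 classes, which were among the 12), and 14 of 29 on TMM-scaled CPM. Bcl2 in hepatocyte-like cells reversed to 0.00107 (log2) with doublets left out. Without TMM factors the 54 genes called in erythroid-like cells, 47 higher and 7 lower, became 46, 7 higher and 39 lower. With the replicate block they were 17. Leaving out 1 pup gave from 16, without control 2 or 4, to 106, without anemic pup 5 (50 higher and 56 lower). Leaving out doublets or single pups within cluster 34, and doublets within ranges and for the differences of effect, was chosen after seeing the data. Causes of these changes were not tested.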
